A study of Mus musculus with 10 samples.

Results

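The voltage-gated sodium, calcium and HCN channel genes were taken by symbol from a table of gene expression in the mouse nucleus accumbens shell. A gene was a member if its symbol began with Scn, Cacna1, Cacna2, Cacnb or Hcn in the forms that name the channel subunits, and 26 of the 20483 genes in the table are described here. They comprise 5 sodium channel alpha and 3 beta subunits, 8 calcium channel alpha1 subunits (2 of the Cav1, 3 of the Cav2 and 3 of the Cav3 family), 4 alpha2delta subunits, 4 calcium channel beta subunits and 2 HCN subunits. By its title the study asks how subregions of the nucleus accumbens, the ventral part of the striatum, handle reward. Its expression samples are pieces of the lateral shell (5 libraries) and of the medial shell (5 libraries), all labelled wild type and neural, with RNA amplified by Geo-seq, which pairs laser capture of small tissue pieces with low-input RNA sequencing. The labels call the libraries biological replicates. They state no strain, sex, age or treatment, and not whether each library came from its own animal, so p-values measure the spread between these libraries, which may be partly technical.

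Voltage-gated sodium channels carry the rising phase of the action potential. Their alpha subunit forms the pore, and beta subunits set its gating and surface level and act as adhesion molecules. Calcium channels are built on an alpha1 pore, of which Cav1 forms link activity to transcription, Cav2 forms trigger transmitter release and Cav3 forms open close to the resting potential, while alpha2delta and beta subunits govern their traffic and gating. HCN channels open on hyperpolarization, are tuned by cyclic AMP and set resting excitability. Spiny projection neurons, the output cells of the striatum, rest at negative potentials and are known for high levels of Scn4b.

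The beta subunits of the sodium channel hold the described gene with the highest mean level and the one with 2 libraries far above the other 8, so the first 120 bases of 3 of their coding sequences are shown, from the transcript with the longest annotated coding sequence in GENCODE M21 (build GRCm38), 5′ to 3′ on the coding strand. Capitals mark the start codon.
Scn2b: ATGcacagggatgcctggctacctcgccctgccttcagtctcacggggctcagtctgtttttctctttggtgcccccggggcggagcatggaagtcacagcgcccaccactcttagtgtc
Scn3b: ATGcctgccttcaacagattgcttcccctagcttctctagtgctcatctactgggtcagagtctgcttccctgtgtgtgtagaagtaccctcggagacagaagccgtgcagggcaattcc
Scn4b: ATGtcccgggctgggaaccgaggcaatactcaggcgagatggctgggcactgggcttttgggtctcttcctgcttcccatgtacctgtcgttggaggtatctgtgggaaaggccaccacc
Scn2b (45117782 to 45130070) and Scn4b (45138395 to 45154152) are neighbours on the plus strand of chromosome 9, where Scn3b also lies (40269217 to 40291618). Their coding sequences span 645, 645 and 684 bases for Scn2b, Scn3b and Scn4b, without the stop codon. No stretch of 31 bases in any Scn4b transcript occurs in an annotated transcript of another gene on either strand, and 2.22% of such stretches in Scn2b and 0.341% in Scn3b do. None of the 3 genes shares exon bases with another annotated gene.

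Values are TPM, a relative abundance of transcripts in which each gene is divided by its length and by the library total, so sequencing depth is not kept. Levels and shares of different genes can be set side by side only as far as reads cover transcripts evenly. That was not checked for these amplified libraries. Each library listed 15402 to 17003 genes above 0, and mitochondrially encoded genes took 23.5% to 35.3% of its TPM. Lateral replicate 5 and medial replicate 2 stand apart: the gene listed as AY036118 was at 1.38 and 1.42 TPM there and took 8.25% to 14.4% of the TPM in the other 8 libraries. Spiny projection neuron markers summed to 3493 to 5921 TPM in lateral and 3358 to 5532 TPM in medial libraries, with all 10 markers measured. Glial and vascular markers were present too, so these are tissue pieces and not neurons alone. Markers of cortical or other glutamatergic neurons were near 0 (at most 3.31 TPM summed over the 2 of 6 genes in the table).

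None of the 25 tested channel genes described here passed between the regions, in either direction. Differences were tested with limma on log2(TPM + 1) over the 15596 genes with at least 1 TPM in at least 5 libraries, at a Benjamini-Hochberg adjusted p under 0.05. Over all of these genes 0.385% passed as higher in lateral and 1.1% as higher in medial, so the absence of a call among 25 genes sets them apart from no other genes. These are 60 and 171 genes, and the balance depends on scaling, with 88 and 82 genes after median-ratio scaling, 86 and 99 after quantile normalization, and 73 and 132 once mitochondrial and haemoglobin genes were taken out of the totals. At an unadjusted limma p under 0.05 there were 4 channel genes, Cacnb3 on the lateral side and Cacna1e, Cacnb4 and Scn9a on the medial side, against 15.4% of all genes. None of the 25 had all libraries of a region above all of the other, a pattern that 0.859% of all tested genes showed with lateral and 3.39% with medial above. Of the 25, 11 had higher and 14 lower lateral values, with a median log2 difference (lateral minus medial) of -0.02 against -0.21 over all genes tested. That shift of all genes depends on how libraries are scaled. It was -0.02 under median-ratio scaling and -0.00238 under quantile normalization, which both bring it close to 0 by design. Scn1a, Scn8a, Cacna1g and Cacnb1 took the other sign under at least 1 of 3 other scalings, while the other 21 kept theirs. Cacna2d4, listed at 0 in all 10 libraries, was below the limit for testing.

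**Figure D1:**
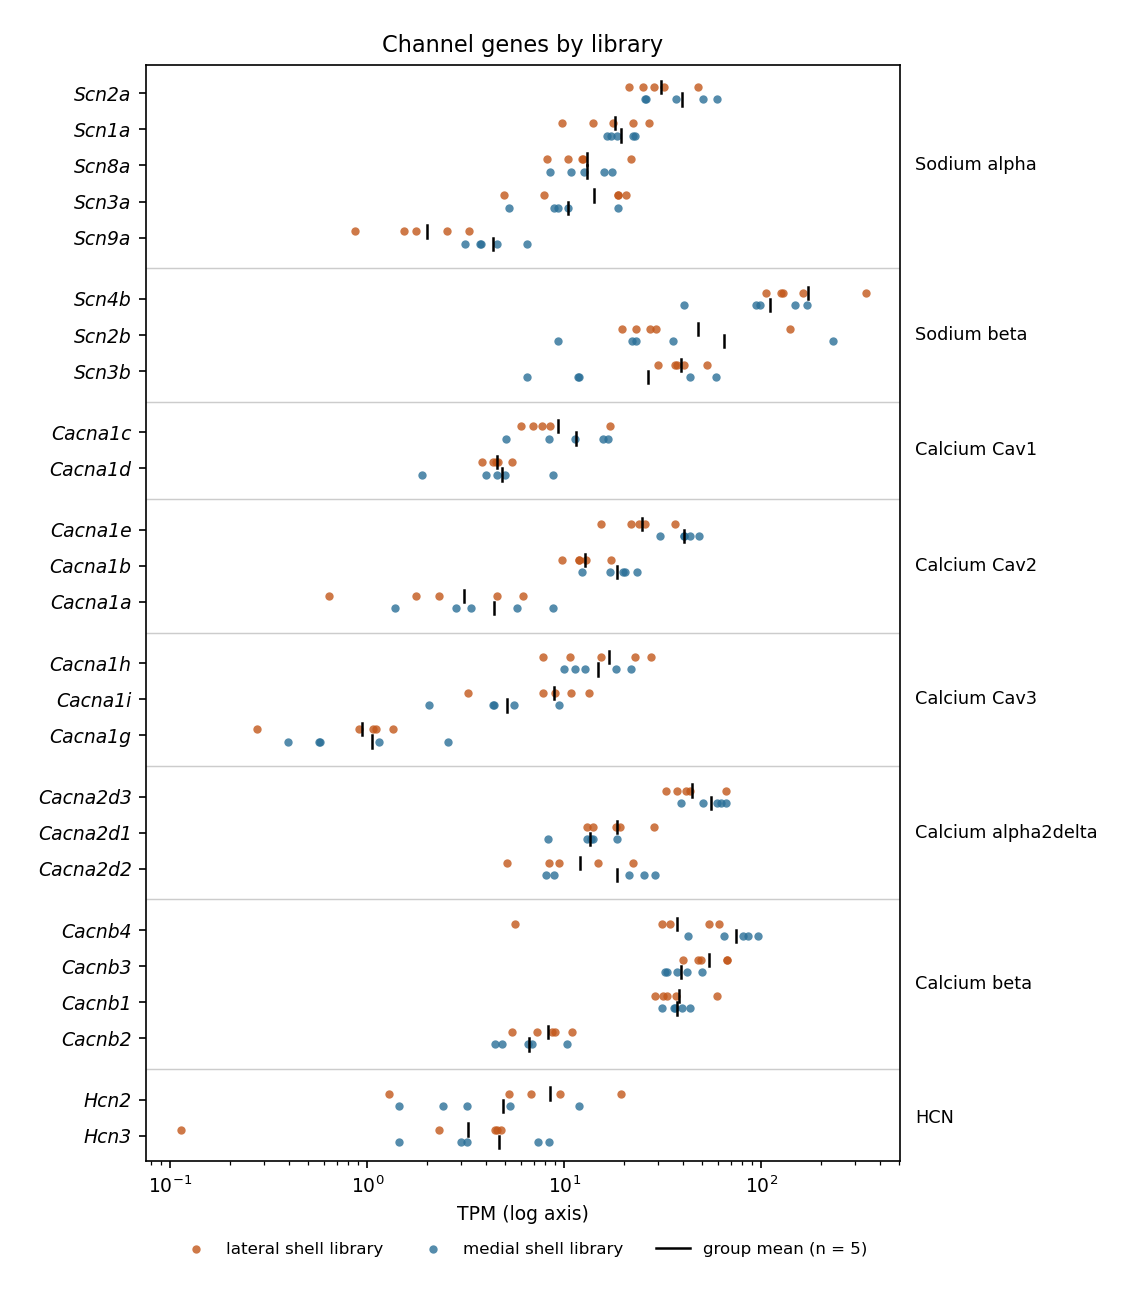
TPM (log axis) of the 25 described genes with a value above 0, grouped by subunit type, with 1 point per library (orange lateral shell, blue medial shell, 5 each) and a black tick at each group mean. The regions overlap for every gene drawn, and Scn4b reaches the highest value (339 TPM, lateral replicate 2).

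Scn2b, Scn3b and Scn4b, the sodium channel beta subunits described here, all had a positive log2 difference, which held under each of the 3 other scalings, and none passed. Their summed level ranged from 163 to 404 TPM in lateral libraries and from 56.4 to 337 TPM in medial ones, with overlap (means 260 and 201 TPM, n = 5 each). In bulk tissue pieces, fewer cells of a type and less RNA per cell cannot be told apart, here and below.

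Scn2b encodes beta2, which is joined to the alpha subunit by a disulphide bond, and it is described here because its libraries stood apart, a choice made after its values were seen. Scn2b was at 27.1, 29.2, 23.2, 19.6 and 140 TPM in lateral replicates 1 to 5 and at 21.9, 232, 9.27, 35.5 and 23.0 TPM in medial replicates 1 to 5. The high libraries were lateral replicate 5 and medial replicate 2, the same libraries in which AY036118 was near 0, and the other 8 lay between 9.27 and 35.5 TPM in both regions. The regions did not differ detectably (log2 difference 0.06, standard error 0.71, limma adjusted p = 0.977), and the lateral mean on the TPM scale was the lower one (47.9 ± 51.8 against 64.3 ± 94.1 TPM, SD, n = 5 each). Without both libraries the log2 difference was 0.26 (limma adjusted p = 0.819). Removing AY036118 from each library's total and rescaling leaves the other 8 libraries at 10.2 to 40.7 TPM of Scn2b. AY036118 took at most 14.4% of a library, so this rescaling could move the values only a little. Its neighbour Scn4b was not raised in them (128 and 93.5 TPM, within the range of the other libraries). Microglia markers summed to 272 TPM in lateral replicate 5 and 130 TPM in medial replicate 2, the lowest of each region. The calcium channel partner genes described below were also lowest there (1127 and 1069 TPM summed). Cholinergic interneuron markers summed to 2.79 and 6.80 TPM, the lowest lateral value but not the lowest medial one (1.55 TPM). Spiny projection neuron markers, at 4892 and 4557 TPM, lay within the range of the other libraries. What sets these libraries apart was not tested.

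Scn4b encodes beta4, linked to resurgent sodium current, and had the highest mean of the described genes. Scn4b was at 164, 339, 125, 106 and 128 TPM in lateral replicates 1 to 5 and at 171, 93.5, 40.6, 98.3 and 149 TPM in medial replicates 1 to 5. Lateral replicate 2 was the highest and medial replicate 3 the lowest, and the remaining libraries of the regions overlapped (172 ± 95.4 against 110 ± 51.2 TPM, SD, n = 5 each, log2 difference 0.66, 95% interval -0.16 to 1.47, limma adjusted p = 0.436). The difference was 0.38 without lateral replicate 2 and 0.34 without medial replicate 3. Of these 3 genes Scn4b was the most abundant in 8 of the 10 libraries, and Scn2b in lateral replicate 5 and medial replicate 2.

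Scn3b encodes beta3, which lacks the disulphide bond to the pore, and had the smallest p of the 3. Scn3b was at 40.5, 36.4, 52.8, 37.1 and 29.8 TPM in lateral replicates 1 to 5 and at 43.2, 11.8, 6.49, 59.2 and 11.8 TPM in medial replicates 1 to 5. The lateral libraries lay close together, while medial replicates 2, 3 and 5 were below them all and medial replicates 1 and 4 within or above their range. The means were 39.3 ± 8.48 and 26.5 ± 23.4 TPM (SD, n = 5 each), with a log2 difference of 0.98 (95% interval -0.06 to 2.02, limma adjusted p = 0.354). Without medial replicate 3 the difference was 0.63 (limma adjusted p = 0.548).

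**Figure D2:**
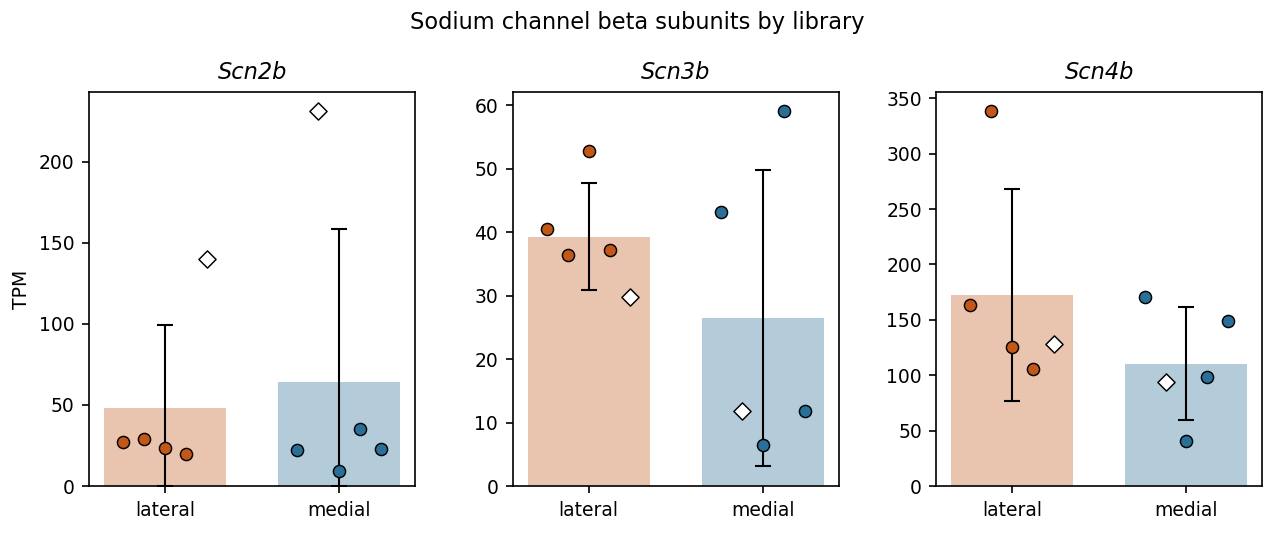
TPM of Scn2b, Scn3b and Scn4b, with a point for each library, bars at the group means and error bars of 1 SD (n = 5 per region, drawn down to 0 where the SD exceeds the mean). White diamonds mark lateral replicate 5 and medial replicate 2, which reach 140 and 232 TPM for Scn2b and lie within or near the other libraries for Scn3b and Scn4b.

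Among the sodium channel alpha subunits, which form the pore, none passed. The 5 described summed to 78.2 ± 21.3 TPM in lateral libraries and 86.9 ± 14.8 TPM in medial ones (SD, n = 5 each). Scn2a, the main alpha subunit of unmyelinated axons in the forebrain, was the most abundant of them in all 10 libraries. Scn2a was at 47.7, 32.0, 25.0, 21.4 and 28.4 TPM in lateral replicates 1 to 5 and at 26.0, 36.8, 25.5, 59.3 and 50.4 TPM in medial replicates 1 to 5. The regions overlapped (log2 difference -0.32, 95% interval -0.92 to 0.28, limma adjusted p = 0.623). The difference was -0.16 without medial replicate 4, -0.21 without lateral replicate 4, -0.49 without lateral replicate 1 and -0.12 under median-ratio scaling. Scn2a made up 40.2% ± 10.4 of that sum in lateral libraries and 44.8% ± 11.6 in medial ones (SD, n = 5 each).

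Scn1a, prominent in fast-spiking interneurons, came second in mean (18.1 ± 6.77 against 19.5 ± 2.88 TPM, SD, n = 5 each) and lay above Scn8a, the main subunit of the axon initial segment, in all 10 libraries. Scn8a (8.17 to 21.9 TPM over the 10 libraries) and Scn3a, better known from the developing brain (4.92 to 20.5 TPM), overlapped in level. The log2 differences of Scn1a, Scn8a and Scn3a were -0.16, -0.03 and 0.33 (limma adjusted p = 0.813, 0.97 and 0.744). For Scn1a the 95% interval ran from -0.73 to 0.40, so differences between these limits are not excluded.

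Scn9a, best known from pain-sensing neurons, had the smallest p of the alpha subunits. Scn9a was at 1.53, 2.52, 3.30, 0.866 and 1.77 TPM in lateral replicates 1 to 5 and at 3.12, 6.47, 3.78, 3.71 and 4.57 TPM in medial replicates 1 to 5. Only lateral replicate 3 and medial replicate 1 overlapped. The log2 difference was -0.86 (95% interval -1.63 to -0.09) with a limma adjusted p of 0.272, so it did not pass, and was -0.56 under quantile normalization. Scn1a, Scn2a, Scn3a and Scn9a lie in a cluster on chromosome 2 and are close in sequence: 7.29%, 9.16%, 9.57% and 6.23% of the 31-base stretches in their transcripts occur in other genes, mostly in one another, so some reads between them may have been assigned to either. Scn9a also shares 180 exon bases with Gm13629 on the opposite strand, whose means were 3.72 (lateral) and 2.95 TPM (medial). Whether strand was used in counting is not stated, so reads of such pairs cannot be told apart.

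Calcium channels of the Cav2 family all had lower lateral values, in these and the 3 other scalings, and none passed. Their sum was 40.5 ± 10.5 TPM in lateral libraries and 63.6 ± 12.2 TPM in medial ones (SD, n = 5 each), overlapping at 25.6 to 54.6 TPM against 46.2 to 80.2 TPM. The median log2 difference of the family was -0.50, against -0.21 for all genes. Cacna1e, encoding the R-type channel, was the most abundant alpha1 subunit of any family in mean level. Cacna1e was at 15.3, 36.5, 25.7, 21.9 and 24.0 TPM in lateral replicates 1 to 5 and at 40.6, 48.0, 30.6, 40.5 and 43.5 TPM in medial replicates 1 to 5. Lateral replicate 2 reached the medial range and medial replicate 3 the lateral one, and the other libraries separated. The log2 difference was -0.73 with a standard error of 0.23 (95% interval -1.22 to -0.25, limma adjusted p = 0.143).

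Cacna1b, the N-type channel of presynaptic terminals, averaged 12.7 ± 2.81 TPM in lateral libraries and 18.6 ± 4.22 TPM in medial ones (SD, n = 5 each, log2 difference -0.50, limma adjusted p = 0.328). Cacna1a, the P/Q-type channel, was lower in level, at 3.09 ± 2.24 and 4.40 ± 2.89 TPM (log2 difference -0.42, limma adjusted p = 0.726). The order Cacna1e, then Cacna1b, then Cacna1a held in all 10 libraries. Of the family's summed TPM, Cacna1e took 57.1% to 66.9% in lateral libraries and 59.9% to 67.2% in medial ones, with overlap.

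Cav1 genes, the L-type channels, did not differ detectably. Cacna1c was at 6.92, 17.1, 7.70, 8.48 and 5.99 TPM in lateral replicates 1 to 5 and at 16.6, 8.39, 5.08, 15.7 and 11.3 TPM in medial replicates 1 to 5. Lateral replicate 2 was the highest of all 10 libraries, the other 4 lateral libraries were between 5.99 and 8.48 TPM, and the regions overlapped (log2 difference -0.26, 95% interval -1.02 to 0.50, limma adjusted p = 0.767). Leaving out 1 library moved the difference between -0.49 (without lateral replicate 2 or medial replicate 3) and -0.11 (without medial replicate 1), and it was -0.07 under median-ratio scaling and -0.02 under quantile normalization. Cacna1d, which opens at more negative potentials than Cacna1c, was lower than Cacna1c in every library, at 4.54 ± 0.589 and 4.84 ± 2.50 TPM (log2 difference 0.02, limma adjusted p = 0.982).

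Cav3 genes, the T-type channels, were led by Cacna1h in mean level. Cacna1h was at 15.3, 27.4, 23.0, 7.83 and 10.7 TPM in lateral replicates 1 to 5 and at 21.7, 11.3, 12.7, 9.92 and 18.3 TPM in medial replicates 1 to 5. The medial values lay inside the lateral range (log2 difference 0.10, 95% interval -0.63 to 0.83, limma adjusted p = 0.917). Cacna1i was at 3.26, 13.4, 7.83, 8.92 and 10.8 TPM in lateral replicates 1 to 5 and at 9.34, 4.40, 2.05, 4.36 and 5.54 TPM in medial replicates 1 to 5. Apart from lateral replicate 1, which was low, and medial replicate 1, which was high, the lateral libraries were above the medial ones (log2 difference 0.68, 95% interval -0.18 to 1.54, limma adjusted p = 0.445). Cacna1i exceeded Cacna1h in lateral replicates 4 and 5 only. Cacna1g was at 0.274 to 2.56 TPM and reached 1 TPM in 5 libraries.

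Alpha2delta subunits, which bring the pore to the membrane and are the target of gabapentin in the case of Cacna2d1 and Cacna2d2, were led by Cacna2d3 in all 10 libraries. Cacna2d3 was at 43.3, 66.1, 37.4, 32.9 and 41.6 TPM in lateral replicates 1 to 5 and at 59.6, 66.3, 39.2, 50.9 and 62.7 TPM in medial replicates 1 to 5. Lateral replicate 2 was close to the highest medial library, and the other lateral libraries were in the lower part of the common range (log2 difference -0.34, 95% interval -0.80 to 0.12, limma adjusted p = 0.471). Under median-ratio scaling the difference was -0.14. Cacna2d1 leaned to the lateral side (18.6 ± 6.17 against 13.5 ± 3.65 TPM, log2 difference 0.42, limma adjusted p = 0.484) and Cacna2d2 to the medial side (5.10 to 28.9 TPM over the 10 libraries, log2 difference -0.57, limma adjusted p = 0.558), and neither passed. Cacna2d1 was above Cacna2d2 in 5 of the 10 libraries. Cacna2d4, known from the retina, was listed at 0 throughout. Among the 4272 genes averaging 20 TPM or more, 20 have a 0 in some library. Whether the 0 values of Cacna2d4 mean absence was not tested.

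Calcium channel beta subunits, which bind the alpha1 subunit from the inside, differed in which gene led. Cacnb4 was the most abundant of them in all 5 medial libraries and in lateral replicate 4, and Cacnb3 in the other 4 lateral libraries. Cacnb4 was at 54.1, 31.4, 5.64, 60.9 and 34.4 TPM in lateral replicates 1 to 5 and at 42.5, 85.8, 64.6, 81.1 and 96.7 TPM in medial replicates 1 to 5. Lateral replicate 3 was the lowest, and the overlap came from medial replicate 1 and lateral replicates 1 and 4. The means were 37.3 ± 21.7 and 74.1 ± 21.1 TPM (SD, n = 5 each), with a log2 difference of -1.25 (95% interval -2.31 to -0.19, limma adjusted p = 0.248). Without lateral replicate 3 it was -0.70 and without lateral replicate 4 it was -1.51, and neither passed. Exons of Cacnb4 share 1433 bases, 16% of their length, with A430018G15Rik on the opposite strand, with means of 0.151 (lateral) and 0.88 TPM (medial).

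Cacnb3 averaged 54.1 ± 11.9 TPM in lateral libraries and 38.9 ± 7.16 TPM in medial ones (SD, n = 5 each, log2 difference 0.46, 95% interval 0.04 to 0.88, limma adjusted p = 0.285). As a share of the summed beta subunit TPM of a library it took at least 33.5% in each lateral library and 21.1% to 27.3% in the medial ones, without overlap, while the share of Cacnb4 was 5.9% to 41.6% and 35.6% to 54.6%. These shares are a description picked after the values were seen, were given no test, and fall for 1 gene when another rises. No other described gene had shares without overlap, and the TPM of Cacnb3 itself overlapped (40.2 to 66.7 against 32.6 to 49.8 TPM). The summed levels overlapped (138 ± 29.6 against 157 ± 29.0 TPM, SD, n = 5 each). Cacnb1 was at 38.1 ± 12.5 and 37.3 ± 4.55 TPM and Cacnb2, the least abundant, at 8.24 ± 2.04 and 6.59 ± 2.34 TPM, and neither passed (limma adjusted p = 0.984 and 0.667).

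**Figure D3:**
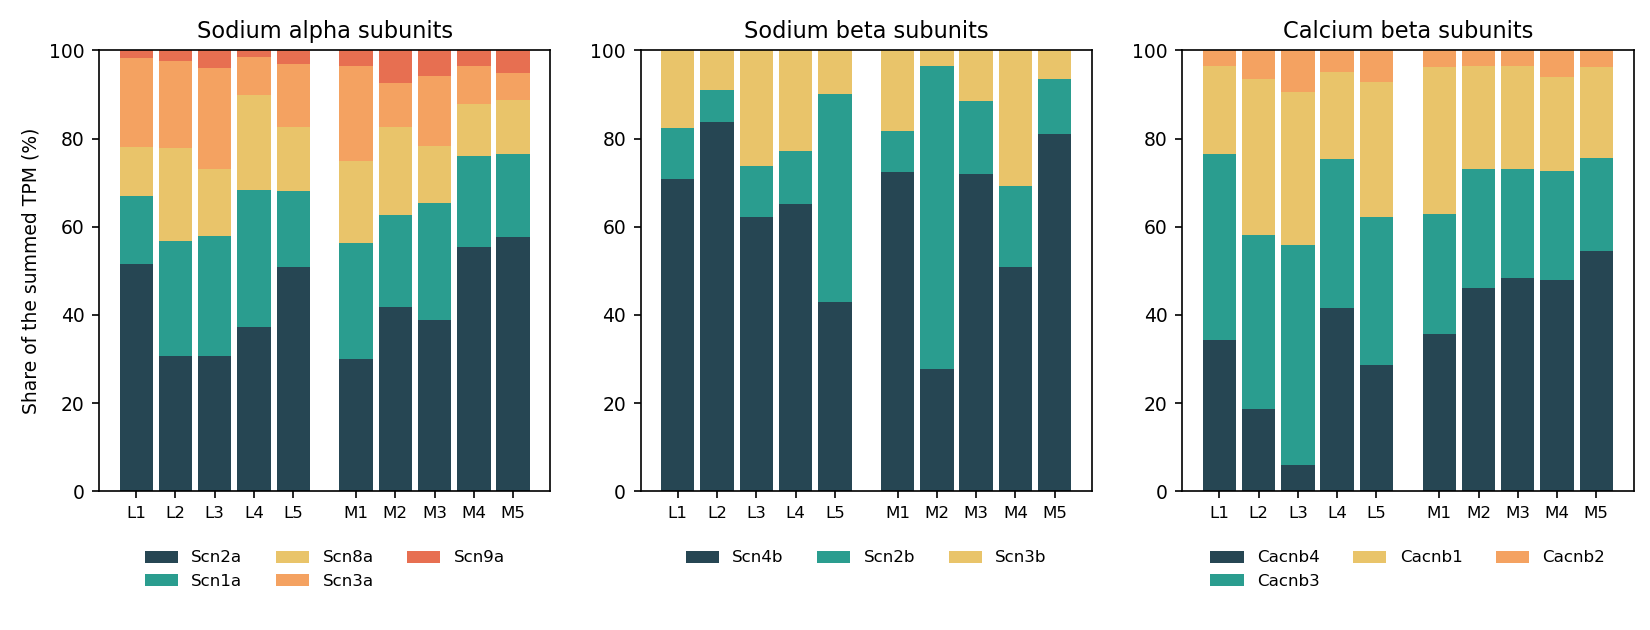
Share (%) of each described gene in the summed TPM of sodium channel alpha, sodium channel beta and calcium channel beta subunits, with 1 stacked bar per library (L lateral, M medial, numbered by replicate). Scn2b fills 47.0% of L5 and 68.8% of M2 among the sodium beta subunits drawn, and Cacnb3 takes a larger share in each lateral bar (33.5% or more) than in any medial one (21.1% to 27.3%). The Cacnb3 pattern was picked after the values were seen and was given no test. The TPM of Cacnb3 itself overlapped between the regions (limma adjusted p = 0.285).

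HCN genes were low and their order was not stable between libraries. Hcn2, whose channel has a strong response to cyclic AMP, was at 1.28, 19.5, 9.47, 6.74 and 5.24 TPM in lateral replicates 1 to 5 and at 5.29, 2.43, 3.21, 1.46 and 11.9 TPM in medial replicates 1 to 5. Lateral replicate 2 and medial replicate 5 were the highest in their regions and the ranges overlapped (log2 difference 0.61, 95% interval -0.62 to 1.84, limma adjusted p = 0.654). Leaving out lateral replicate 2 or medial replicate 4 lowered the difference to 0.25 and 0.36, and leaving out lateral replicate 1 or medial replicate 5 raised it to 1.04 and 0.96. Hcn3 was at 4.56, 4.77, 4.44, 2.30 and 0.113 TPM in lateral replicates 1 to 5 and at 1.44, 2.97, 8.37, 3.19 and 7.32 TPM in medial replicates 1 to 5. Its lowest library was lateral replicate 5, and the regions overlapped (log2 difference -0.46, 95% interval -1.61 to 0.68, limma adjusted p = 0.722). Hcn2 was above Hcn3 in 6 of the 10 libraries. The 95% intervals of both reach beyond 1 log2 unit on one side, so a difference of that size on that side is not excluded. Hcn3 shares 711 exon bases with Pklr on the opposite strand.

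**Figure D4:**
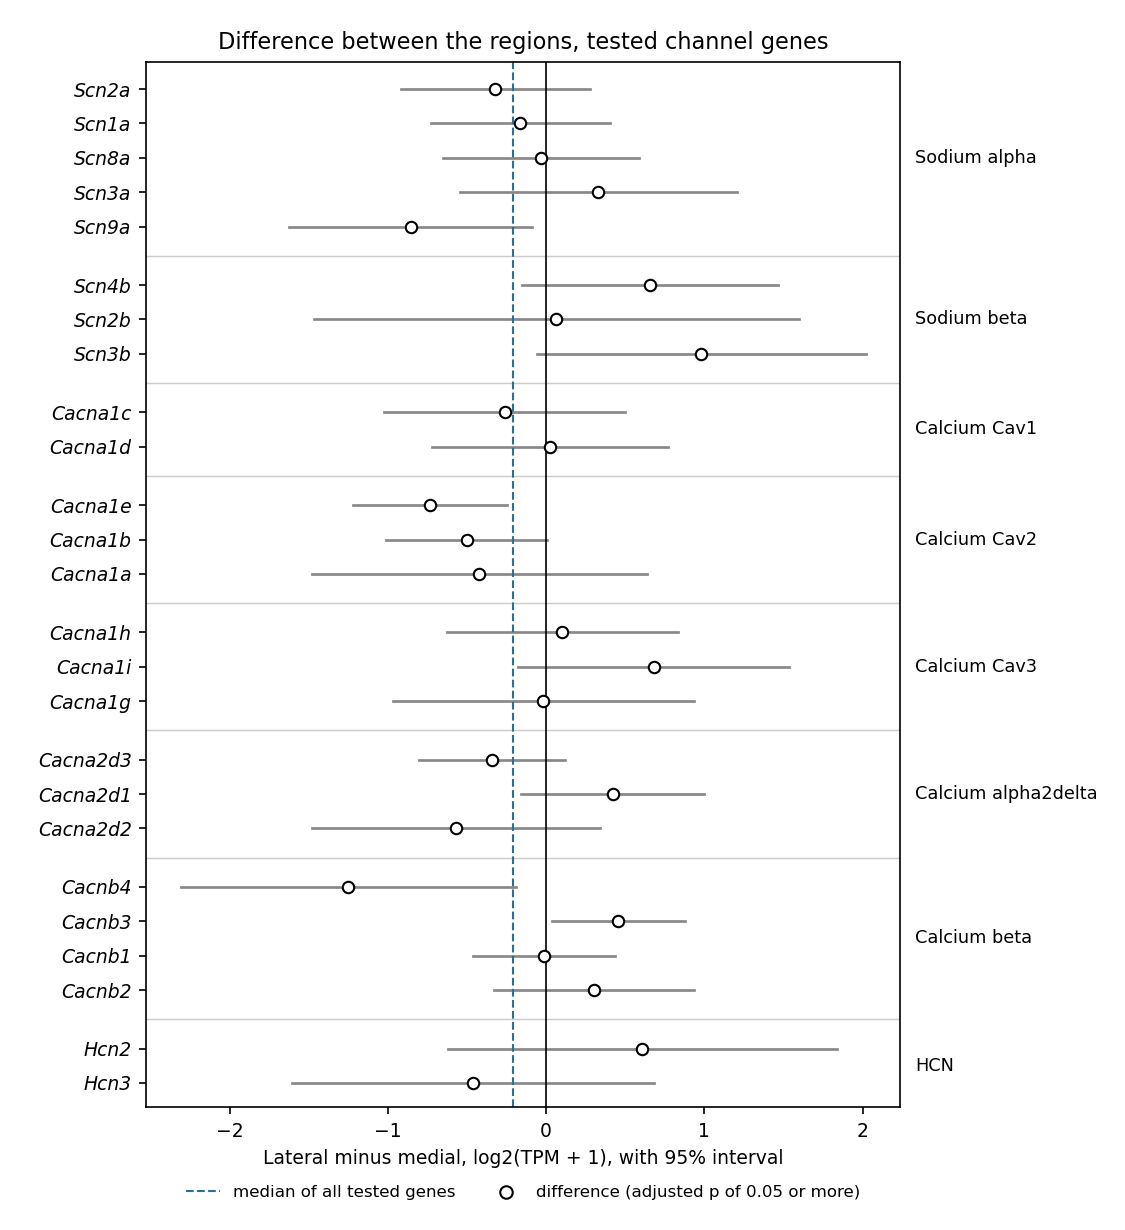
Difference between the regions (lateral minus medial, log2(TPM + 1)) for the 25 tested channel genes described, with 95% intervals, a solid line at 0 and a dashed line at the median of all tested genes (-0.21). The intervals of Cacnb3, Cacna1e, Cacnb4 and Scn9a leave out 0, and none passed the adjustment over all genes.

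Genes that act with these channels were taken from lists of partners. Of the 68 listed, 55 were in the table and 54 were tested, with 2 higher in lateral (Cacng5 and Sgk1) and 2 higher in medial (Cntn1 and Rims2), beside the 0.385% and 1.1% of all genes given above. Their median log2 difference was 0.02 against -0.21 for all genes.

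Cntn1, contactin 1, is an adhesion molecule that binds sodium channel beta subunits, and it was the 1 of 20 sodium channel partners to pass. Its lateral libraries were at 34.4 to 57.4 TPM and its medial ones at 75.0 to 114 TPM (45.1 ± 11.2 against 91.0 ± 16.9 TPM, SD, n = 5 each, log2 difference -1.01, limma adjusted p = 0.0262). Leaving out any 1 of lateral replicates 1 to 3 or medial replicates 3 to 5 ended the call (adjusted p up to 0.0641), as did median-ratio scaling (0.0708).

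Among 24 tested calcium channel partners, Rims2, a scaffold of the presynaptic active zone that binds calcium channels, ranged over 12.9 to 24.6 TPM (lateral) and 28.7 to 42.2 TPM (medial) (log2 difference -1.03, limma adjusted p = 0.0391). It passed in 6 of 23 alternatives and lost its call without any 1 library other than lateral replicate 4 (adjusted p up to 0.112). Cacng5, named after calcium channel gamma subunits but known mainly as an auxiliary subunit of AMPA receptors, ranged over 4.58 to 12.3 TPM (lateral) and 0.145 to 2.55 TPM (medial) (log2 difference 2.07, limma adjusted p = 0.0312). Sgk1, a kinase that regulates channel traffic and responds to glucocorticoids, was at 19.4 to 28.2 and 11.4 to 13.4 TPM (log2 difference 0.95, limma adjusted p = 0.0272). The log2 difference of Cacng5 was 2.95 with 0.1 added to the TPM in place of 1, and 1.07 with 5 added. Its call ended with 0.1 added (limma adjusted p = 0.0723) and without the filter on low values (0.0519). The call also ended on leaving out any 1 of lateral replicates 1, 4 and 5 and medial replicates 2, 3 and 5 (adjusted p up to 0.0809). That of Sgk1 ended on leaving out any 1 library but lateral replicate 3 and medial replicate 1 (up to 0.0713). Without both libraries that stand apart none of the 4 passed (0.0697 to 0.147), with log2 differences of -1.16 for Cntn1, -1.02 for Rims2, 2.02 for Cacng5 and 0.95 for Sgk1. With all 10 libraries and a term for these libraries in the fit, all 4 passed (limma adjusted p = 0.0390 to 0.0438).

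Of the markers of other cell types, 3 of 6 for microglia passed as higher in lateral (C1qa, Tmem119 and Ctss), against 0.385% of all genes. All 6 had higher lateral values, as 4884 of the 15596 genes tested did, and summed to 272 to 438 TPM in lateral libraries and 130 to 266 TPM in medial ones. All 7 oligodendrocyte markers also had higher lateral values (298 to 896 TPM against 104 to 430 TPM), and none passed. GABAergic interneuron markers summed to 525 to 5693 TPM in lateral and 31.2 to 1713 TPM in medial libraries. Of the 8 tested, 7 were higher in lateral and Calb2 in medial, and none was called. Sst and Npy made up most of the mean sums (1146 and 1258 of 2483 TPM in lateral, 191 and 200 of 431 TPM in medial). These sums therefore say little about the other markers, such as Lhx6 (means 11.2 and 8.47 TPM). Astrocyte markers were split, with 2 higher in lateral and 4 in medial, and so were oligodendrocyte precursor markers, with 2 and 3. None of either list passed. The astrocyte markers summed to 422 to 620 TPM in lateral and 525 to 674 TPM in medial libraries. Cholinergic interneuron markers varied widely within each region, from 2.79 to 286 TPM summed in lateral and from 1.55 to 235 TPM in medial libraries. Of the 6, 3 were higher in lateral and 3 in medial. Endothelial and mural markers summed to 101 to 501 TPM and 115 to 207 TPM, with 4 of the 5 tested higher in lateral. No marker of these last lists passed. The part of these cells in the differences of these 4 partners, and in those of the channel genes, was not tested.

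None of the 4 tested genes of the sodium leak channel complex passed. All 4 had lower lateral values, as 10712 of the 15596 genes tested did, and for Nalcn (-0.19) and Unc80 (-0.18) the log2 difference was smaller in size than the median of all genes. Unc79, a large subunit of that complex, had the smallest p, at 9.46 ± 3.61 against 15.0 ± 1.99 TPM (SD, n = 5 each, log2 difference -0.66, limma adjusted p = 0.239, log2 difference -0.43 under quantile normalization). Of the 6 HCN partners tested none passed, and Pde4b, a cyclic AMP phosphodiesterase, had the smallest p (27.5 ± 6.91 against 39.9 ± 18.8 TPM, log2 difference -0.40, limma adjusted p = 0.615). Its difference ran from -0.69 without medial replicate 3 to -0.23 without medial replicate 5, and was -0.19 under median-ratio scaling.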

How the data were processed

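Gene expression was measured in 10 libraries, 5 of the lateral and 5 of the medial shell, grouped by their titles. The deposited values are TPM, and each library's column sums to 1000000. Tools listed in the submitters' processing notes, without roles, are featureCounts 1.6.3, StringTie 1.3.4, HISAT2 2.1.0 and fastp 0.20.0, with build GRCm38 (mm10). Neither annotation nor strand use nor filters are stated there. Depth is unknown, so no counting interval can be given.

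limma 3.58.1 in R 4.3.3 (mean-variance trend, no covariates) was fitted on log2(TPM + 1) over all genes of at least 1 TPM in at least 5 of 10 libraries, a scale that understates differences of low genes. The script was tested on simulated data. Gene positions, exon overlaps and 31-base matches come from GENCODE M21. Figures were drawn with matplotlib 3.10.9. Values in every library are given for each member that passed, and for the member with the highest mean and the one with the smallest p in each subunit family. Partner genes that passed, or else the one with the smallest p in a list, are named with ranges or means. Another 3 genes that match the symbol rule are not reported here, so counts, sums and shares of channel genes leave them out, while the fit and its adjustment cover all genes. The members and lists were chosen with earlier results of these data known. The 23 alternatives changed pseudocount, filter, scaling, variance model, a block for replicate number, the treatment of the 2 libraries low in AY036118, and each library in turn.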

Additional observations from a re-analysis of the deposited data

Results flagged for a closer look

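Within a region, a library was marked where its gap to the nearest other library exceeded 0.71 of the range of the 5 values (Dixon's 95% limit). Chance marks about 1 in 20 groups if values are normally distributed, which was not checked for these TPM. Of the 50 groups of member values 5 were marked, all for a high value. The groups share libraries, so their marks are not independent and the 2 rates cannot be compared. Scn2b was at 140 TPM in lateral replicate 5, against at most 29.2 TPM in the other lateral libraries, and at 232 TPM in medial replicate 2, against at most 35.5 TPM in the other medial ones. Lateral replicate 2 was marked as high for 3 genes: Scn4b at 339 TPM (next 164 TPM), Cacnb1 at 59.9 TPM (next 36.7 TPM) and Cacna1c at 17.1 TPM (next 8.48 TPM). That library also had the highest summed level of the described channel genes, 914 TPM against 399 to 810 TPM in the other 9. The cause of these high values was not tested.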

How the results depend on the processing

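None of the 25 tested channel genes passed in any of the 23 alternatives, in either direction, and the smallest adjusted p was 0.0768 (Cacna1e). Replicate numbers do not pair the libraries (correlations of same-numbered deviations -0.0534 to 0.0417, none the highest of its library). With the block the counts of channel genes and of partners were 0 in lateral and 0 in medial, and of all genes 19 and 45. Partner counts, 2 and 2 as reported, were 1 and 1 with a pseudocount of 0.1 or no filter, 0 and 0 without both AY036118-low libraries (2 and 2 with a term for them), 1 higher in medial under quantile normalization or rescaling without mitochondrial and haemoglobin genes, and 0 under median-ratio scaling or without a trend. Leaving out 1 library gave 0 to 4 in lateral and 0 to 2 in medial. Counts over all genes, 60 and 171 as reported, were 34 and 111 without a trend and 12 and 31 without both libraries (53 and 141 with the term). On the medial side they were 107 with a pseudocount of 0.1, 82 with median-ratio scaling (88 in lateral), 99 with quantile normalization (86 in lateral) and 132 with the rescaling (73 in lateral). Leaving out 1 library gave 23 to 69 and 56 to 188. Differences near 0 turned sign for Scn2b with sample weights (-0.0059), without lateral replicate 5 (-0.43) or medial replicates 1 (-0.08), 3 (-0.37) or 5 (-0.07), with leave-out values up to 0.75, and for Cacna1h without lateral replicates 2 (-0.10) or 3 (-0.04) or medial replicate 4 (-0.02), with leave-out values up to 0.32. The sign also turned for Cacnb1 and Scn8a in 9 of 23 alternatives each, and for Scn1a in 4 of 23. It turned for Cacna1g in 7 of the 17 alternatives in which that gene was tested, and for Cacna1d in 5 of 22. No other tested channel gene turned sign.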
